A study of Mus musculus with 6 samples.

Results

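Vitamin D, phosphate, calcium, and magnesium handling in the kidney was described here through 10 genes, Slc34a1, Slc34a3, Cyp27b1, Cyp24a1, Vdr, Kl, Trpv5, Trpm6, Calb1, and Pth1r. Their probes were taken by gene name from all probes of the array that are not controls. They have 17 of the 56605 probes, and the 10 genes stand among 37325 genes or transcripts on the array. Kidney RNA of WT mice and of Selenbp1-KO mice, which lack a functional gene for selenium-binding protein 1, was measured on one-color Agilent arrays. Both groups were male mice, 8 weeks old, of strain C57BL/6J by the labels, fasted for 20 h before the left kidney was taken, with 3 mice and 3 arrays per genotype. Replicates 2, 3, and 4 are WT and replicates 1, 2, and 3 are Selenbp1-KO, and values of single arrays are given in this order throughout. The methods name no tissue to which the deletion is limited, and they describe the WT mice as obtained from a supplier and do not say that they were littermates of the Selenbp1-KO mice.

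The kidney sets how much phosphate, calcium, and magnesium leaves the body. In the proximal tubule, the sodium-phosphate cotransporters encoded by Slc34a1 and Slc34a3 take phosphate back from the filtrate, and parathyroid hormone, through its receptor Pth1r, and the bone hormone FGF23, through its co-receptor Klotho (Kl), both lower this uptake. The same hormones set vitamin D activation: Cyp27b1 makes the active hormone, Cyp24a1 degrades it, and the receptor Vdr carries its signal to the genome. In the distal tubule, calcium enters through the channel Trpv5 and is carried across the cell by calbindin (Calb1), and magnesium enters through the channel Trpm6.

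The probes behind the results that the text turns on are shown first. Each probe has 60 bases, and its first 30 bases are given as the array files hold them, 5′ to 3′. Slc34a3 has a pair of probes that lie apart on 1 transcript, at bases 1973 and 1236 of NM_080854, so that its difference could be read from separate sites. Cyp27b1 and Cyp24a1 are each read by 1 probe. By the mm9 coordinates of the files, the Slc34a3 probes lie on the minus strand of chromosome 2, at 25084438 to 25084497 and 25086307 to 25086366. The Cyp27b1 probe lies on the plus strand of chromosome 10 (126489922 to 126489981) and the Cyp24a1 probe on the minus strand of chromosome 2 (170308865 to 170308924). The files do not say whether a probe lies in coding or untranslated sequence.
Slc34a3, base 1973: taagacagaggagcagggctccacacggat
Slc34a3, base 1236: cctcgttggcgcaggcctaaccttcttgct
Cyp27b1: ttgcctaatttacagcgtttttaagcctcc
Cyp24a1: tctttattcaaagtgatgattgtaacatat

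Signals are given as log2 values relative to the 75th percentile of the same array, so that 0 is the level of that percentile, and differences are Selenbp1-KO minus WT. On each array, 51.8% to 55.5% of the non-control spots were well above background, and none was saturated. Selenbp1 itself was lower by 2.96 on the log2 scale in Selenbp1-KO kidneys (from 7.02 to 7.07 in WT and from 3.98 to 4.13 in Selenbp1-KO), so each label matched its array. All 6 arrays lie on 1 slide, with WT replicates 2 and 3 in row 1 and WT replicate 4 and all Selenbp1-KO arrays in row 2, so for WT replicates 2 and 3 slide row and genotype cannot be told apart. Some markers of the nephron segments were bright in both genotypes. Slc5a2 (proximal tubule) had a mean of 6.20 in WT and 6.16 in Selenbp1-KO kidneys, Slc12a3 (distal convoluted tubule) 1.94 and 1.88, and Aqp2 (collecting duct) 4.29 and 4.03. Others were dim, among them Klhl3 (distal convoluted tubule, −4.66 and −4.90) and Scnn1b (connecting tubule and principal cells, −4.76 and −4.74). These are whole-kidney RNAs, in which fewer cells of a type and less RNA per cell cannot be told apart. The limma p-values use the spread between 3 mice per genotype, drawn toward the spread common to all probes. The WT spread also holds any difference between slide rows, and the number of arrays limits the precision.

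In Selenbp1-KO kidneys, none of the 10 genes passed the threshold of the methods, an unadjusted limma p under 0.05. Of all 37028 genes tested, 8.00% passed it, 6.87% higher and 1.13% lower. After adjustment over all probes, 0.00540% of all genes passed, and the lowest adjusted p among the 10 genes was 0.279 by limma. By the mean difference, 5 genes were below 0, 4 above, and Trpv5 was at 0.00, and 7 of the 10 lay within 0.25 log2 of 0, against 54.9% of all genes. Slc34a3 was the only one of the 10 whose genotypes did not overlap, and Cyp27b1 had the widest spread. Complete separation in either direction has a two-sided exact permutation p of 0.1, the smallest that 3 arrays against 3 allow. Its share over all genes was computed only for the lower direction (3.87%). The count of 1 in 10 is therefore not read as a result about these genes. The median difference of the 10 genes was −0.01, beside 0.13 for all genes tested, which include genes at background. The latter was 0.02 under a stricter filter, which kept probes well above background on all arrays of a genotype. It was 0.00 when the arrays were brought to the same distribution by quantile normalization.

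**Figure D1:**
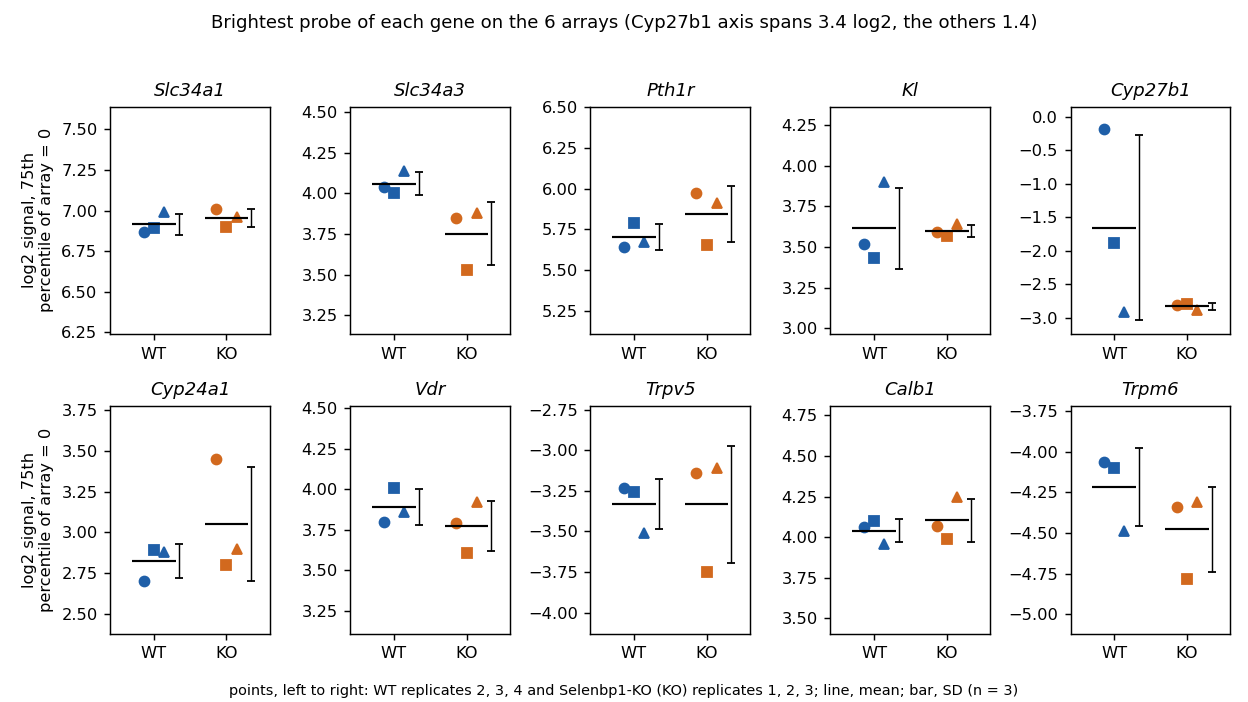
Log2 signal (75th percentile of the array = 0) of the brightest probe of each of the 10 genes. Points are the 3 WT and 3 Selenbp1-KO arrays, lines are means, and bars are SD. The Slc34a3 points of Selenbp1-KO lie from 3.53 to 3.88, all below the WT points from 4.00 to 4.14, and the WT points of Cyp27b1 spread from −2.91 to −0.18.

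Phosphate transport was represented by the more abundant proximal cotransporter of the mouse, NaPi-IIa (Slc34a1), and by NaPi-IIc (Slc34a3). Slc34a3 was lower on every Selenbp1-KO array than on every WT array with both of its probes, whereas the Slc34a1 arrays overlapped. Slc34a3 (NM_080854) had a signal of 4.04, 4.00, and 4.14 on the WT arrays and of 3.85, 3.53, and 3.88 on the Selenbp1-KO arrays. The groups did not overlap, and Selenbp1-KO replicate 2 was the lowest array. The difference was −0.31 (standard error 0.131, 95% interval −0.63 to 0.01), a signal 1.24-fold lower, with an adjusted p of 0.279 by limma. A complete separation with lower values in Selenbp1-KO kidneys was found for 3.87% of all genes, and for 6.51% of the 19265 genes that were well above background on all 3 arrays of WT or of Selenbp1-KO kidneys.

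With its dimmer probe, Slc34a3 had 0.84, 1.0, and 0.86 in WT and 0.81, 0.40, and 0.77 in Selenbp1-KO kidneys. These groups also did not overlap, as was the case in this direction for 4.06% of all probes, but the gap between WT replicate 2 and Selenbp1-KO replicate 1 was small. The difference was −0.24 (standard error 0.145, 95% interval −0.59 to 0.12). Both probes read RNA of the same mice and are no independent replicates. For the brighter probe, the unadjusted limma p was 0.0584, just outside the threshold. It passed under 5 of 19 alternatives, among them quantile normalization (−0.34), the authors' own normalized values (−0.34), and normexp background correction (−0.33). No alternative brought its adjusted p below 0.109. Without Selenbp1-KO replicate 2, the difference was −0.20. Against WT replicate 4 alone, the WT array in the same slide row, it was −0.39, and all 3 Selenbp1-KO arrays were below that array.

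Slc34a1 (NM_011392, chromosome 13, 55515201 to 55515259) had 6.87, 6.89, and 6.99 in WT and 7.01, 6.90, and 6.96 in Selenbp1-KO kidneys. The groups overlapped throughout, with a range of 0.12 among WT arrays. The difference was 0.04 (standard error 0.0975, 95% interval −0.20 to 0.28), and its sign turned to −0.04 with quantile normalization. A further probe of Slc34a1 gave 0.00 (95% interval −0.24 to 0.24). To set both cotransporters against each other on the same array, the Slc34a3 log2 signal was subtracted from that of Slc34a1. This contrast was 2.83, 2.89, and 2.84 on the WT arrays and 3.16, 3.37, and 3.08 on the Selenbp1-KO arrays. All Selenbp1-KO arrays were above all WT arrays, by a mean of 0.35. The two-sided exact permutation p was 0.1, the smallest that 3 arrays against 3 allow, and 0.2 after adjustment over the 4 contrasts tested. The contrast stayed between 0.27 and 0.41 when any 1 array was left out.

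Both cotransporters are proximal tubule genes. The 12 proximal tubule markers had a summed linear signal of 880 to 1079 times the 75th percentile in WT and 958 to 996 times in Selenbp1-KO kidneys. Of these, 1 (8.33%) was called, beside 8.00% of all genes. It was Slc22a12, the urate transporter URAT1, which was higher by 0.38 (adjusted p = 0.279 by limma). Among their partners, the scaffold Pdzk1, which anchors transporters at the brush border, differed by 0.08, the scaffold Slc9a3r1 (NHERF1) by 0.04, and the phosphate exporter Xpr1 by −0.09. None of these passed the threshold here. Xpr1 was called lower after quantile normalization and in the authors' own values.

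**Figure D2:**
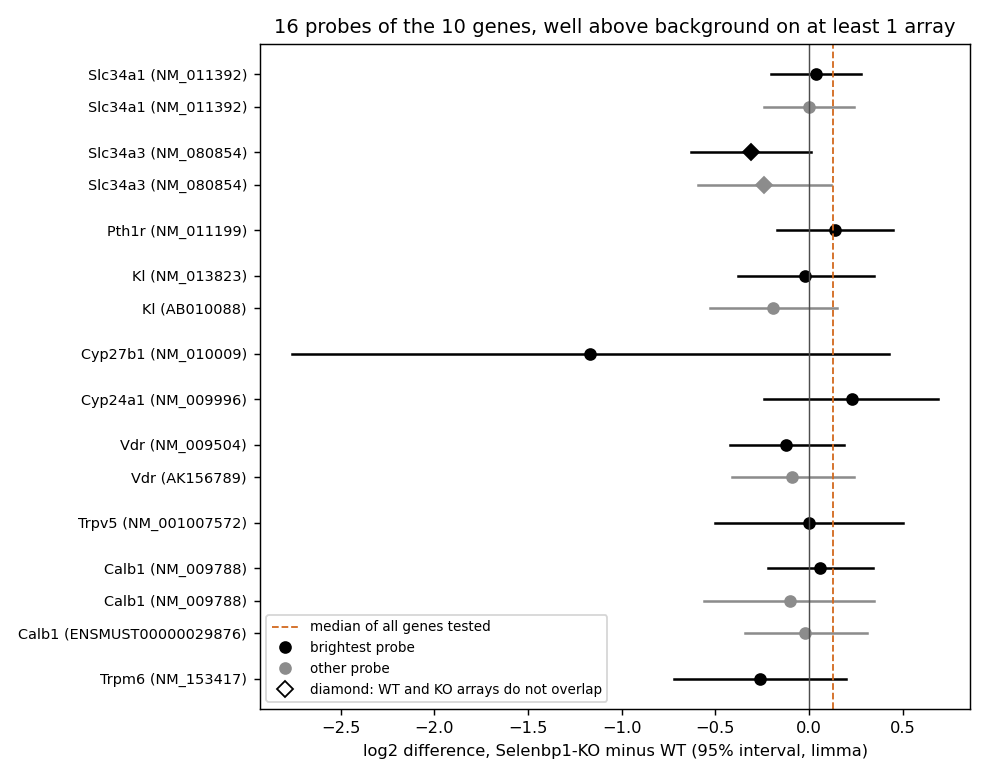
Log2 difference, Selenbp1-KO minus WT, with its 95% interval from limma, for the 16 probes of the 10 genes that were well above background on at least 1 array. The dashed line marks the median of all genes tested (0.13), which was 0.02 under the stricter filter on signal over background. Only the Slc34a3 probes, drawn as diamonds, had arrays that did not overlap between genotypes, and every interval includes 0.

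The receptors of the hormones that act on these transporters showed no called change. Pth1r (NM_011199, chromosome 9), the receptor of parathyroid hormone, had 5.64, 5.79, and 5.67 in WT and 5.97, 5.65, and 5.91 in Selenbp1-KO kidneys. Selenbp1-KO replicates 1 and 3 were above all WT arrays and replicate 2 was within them. The difference was 0.14 (standard error 0.126, 95% interval −0.17 to 0.45). Kl (NM_013823, chromosome 5), the co-receptor that lets FGF23 bind its receptors, had 3.52, 3.43, and 3.90 in WT and 3.59, 3.57, and 3.64 in Selenbp1-KO kidneys. The Selenbp1-KO arrays lay within 0.06 log2 of each other, inside the WT range, and the difference was −0.02 (95% interval −0.38 to 0.35). This value depended on WT replicate 4, the highest array: it was 0.13 without that array and −0.30 against that array alone, within slide row 2. A dimmer Kl probe (AB010088) had −0.82, −0.76, and −0.68 in WT and −0.81, −1.19, and −0.82 in Selenbp1-KO kidneys, and differed by −0.19 (95% interval −0.53 to 0.15).

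The vitamin D receptor Vdr (NM_009504, chromosome 15) had 3.80, 4.01, and 3.86 in WT and 3.79, 3.61, and 3.92 in Selenbp1-KO kidneys. The groups overlapped, with Selenbp1-KO replicate 2 the lowest. The difference was −0.12 (standard error 0.125, 95% interval −0.42 to 0.19), and −0.09 with a further probe (AK156789). Its sign was the same under all 19 alternatives, none of which brought it past the threshold. Rxra, the retinoid receptor that pairs with Vdr on DNA, had 5.27 to 5.29 in WT and 5.10 to 5.17 in Selenbp1-KO kidneys. Its groups did not overlap, and the difference of −0.14 did not pass the threshold (adjusted p = 0.449 by limma). It was −0.20, and called lower, after quantile normalization and in the authors' own values. Student's t-test also called it, which the methods name among their general statistics, whereas they name limma for the arrays.

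Of the vitamin D enzymes, Cyp27b1 had the largest mean difference of the 10 genes, and it rested on the WT arrays of slide row 1. Cyp27b1 (NM_010009), the 1α-hydroxylase, had −0.18, −1.88, and −2.91 on the WT arrays and −2.81, −2.79, and −2.89 on the Selenbp1-KO arrays. The WT arrays spanned 2.73 log2, a 6.65-fold range, while the Selenbp1-KO arrays spanned 0.10, and WT replicate 4 lay below all of them. An SD between WT arrays as large as that of Cyp27b1 was found for 148 of the 37028 genes (0.4%). The difference was −1.17 (standard error 0.654, 95% interval −2.76 to 0.43, adjusted p = 0.360 by limma). Within slide row 2, the Selenbp1-KO mean was 0.09 above WT replicate 4. Without WT replicate 2 the difference was −0.43. Without WT replicate 4 it was −1.79 and passed the unadjusted threshold, with an adjusted p of 0.0698 by limma. The Cyp27b1 signal was well above background on all 6 arrays.

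Cyp24a1 (NM_009996), the 24-hydroxylase that degrades both the hormone and its precursor, had 2.70, 2.89, and 2.88 in WT and 3.45, 2.80, and 2.90 in Selenbp1-KO kidneys. Selenbp1-KO replicate 1 was the highest array, and the other Selenbp1-KO arrays lay within or just above the WT range. The difference was 0.23 (standard error 0.192, 95% interval −0.24 to 0.69), and 0.03 without Selenbp1-KO replicate 1. The array with the highest Cyp24a1 (Selenbp1-KO replicate 1) was not the one with the lowest Cyp27b1 (WT replicate 4), and the array with the highest Cyp27b1 (WT replicate 2) had the lowest Cyp24a1. Cyp27b1 minus Cyp24a1 was −2.89, −4.78, and −5.79 on the WT arrays and −6.25, −5.59, and −5.79 on the Selenbp1-KO arrays. These overlapped, with a difference of −1.39 (two-sided exact permutation p = 0.2, 0.267 adjusted over the 4 contrasts) and of −0.09 within slide row 2. The enzymes of the preceding hydroxylation step, Cyp2r1 and Cyp27a1, differed by −0.01 and −0.12. The receptors Lrp2 (megalin) and Cubn (cubilin), which return the carrier of vitamin D from the filtrate, differed by −0.01 and −0.03. Within slide row 2, these 4 differences were −0.20 for Cyp2r1, 0.21 for Cyp27a1, −0.24 for Lrp2, and −0.31 for Cubn, and none was called there.

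**Figure D3:**
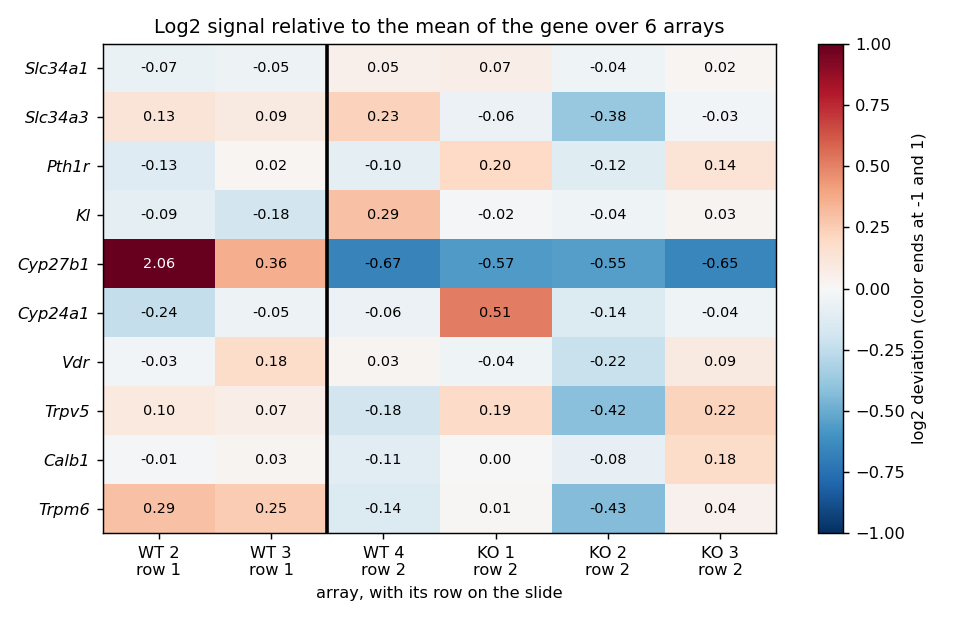
Log2 signal of each of the 10 genes on each array, relative to the mean of that gene over the 6 arrays. Columns are arrays with their slide row, and the black line separates row 1 from row 2. Cyp27b1 lies 2.06 and 0.36 above its mean on the row 1 arrays and 0.55 to 0.67 below it on the row 2 arrays, and the Selenbp1-KO replicate 2 column is below 0 for all 10 genes.

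Neither Trpv5 nor Calb1, the calcium transport genes among the 10, was called, whereas Trpv6, a further calcium channel described with the pathway lists, was higher. Trpv5 (NM_001007572, chromosome 6), the apical calcium channel, had −3.23, −3.26, and −3.51 in WT and −3.14, −3.75, and −3.11 in Selenbp1-KO kidneys. Selenbp1-KO replicates 1 and 3 were the highest and replicate 2 the lowest of the 6 arrays. The difference was 0.00 (standard error 0.205, 95% interval −0.50 to 0.50), an interval that leaves room for a change in either direction. Calb1 (NM_009788, chromosome 4), calbindin-D28k, had 4.06, 4.10, and 3.96 in WT and 4.07, 3.99, and 4.25 in Selenbp1-KO kidneys. The groups overlapped, and the difference was 0.06 (95% interval −0.22 to 0.34), with −0.10 and −0.02 from the other probes. Trpv5 minus Calb1 differed by −0.06 between genotypes (two-sided exact permutation p = 0.9). S100g, the smaller calbindin, had 6.85 to 6.89 in WT and 6.95 to 7.02 in Selenbp1-KO kidneys, without overlap. The share of all genes without overlap in this higher direction was not computed. The S100g difference of 0.10 did not pass the threshold. The basolateral calcium pump Atp2b1 differed by −0.16, and by −0.30 within slide row 2, and did not pass. The sodium-calcium exchanger Slc8a1 differed by 0.13 and did not pass, and it had no settled direction: it was called lower with slide row as a block (−0.32) and called higher without WT replicate 4 (0.35) and with the mean of all its probes (0.37).

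Trpm6 (NM_153417, chromosome 19), the magnesium channel, was a dim gene here, well above background on all 3 WT arrays and on 2 of the Selenbp1-KO arrays. Its signal was −4.06, −4.10, and −4.49 in WT and −4.34, −4.78, and −4.31 in Selenbp1-KO kidneys. The row 1 arrays, WT replicates 2 and 3, were the highest, and WT replicate 4 was within the Selenbp1-KO range. The difference was −0.26 (standard error 0.187, 95% interval −0.72 to 0.20), and 0.01 within slide row 2. The other Trpm6 probe (AK080899) was not well above background on any array and gives no level. Trpm6 minus Trpv5, the magnesium against the calcium channel, was −0.84, −0.84, and −0.98 on the WT arrays and −1.20, −1.03, and −1.21 on the Selenbp1-KO arrays. The groups did not overlap, with a difference of −0.26 (two-sided exact permutation p = 0.1, 0.2 adjusted). It was −0.05 with normexp background correction. Of the magnesium partners, Egf, the hormone that stimulates Trpm6, differed by −0.11, Cnnm2 by 0.00, and the transporter Slc41a3 by 0.00.

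Across the 10 genes, 1 array stood out. Selenbp1-KO replicate 2 had the lowest Selenbp1-KO signal for 9 of the 10 genes, all but Cyp27b1. It was the lowest Selenbp1-KO array for 25.1% of all genes, and for 40.6% of the 19265 genes well above background on all arrays of a genotype. Without this array the median of the 10 genes was 0.03. Among the WT arrays, replicates 2, 3, and 4 were the lowest for 4, 2, and 4 of the 10 genes.

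The other genes of these pathways were read from 5 lists with 79 genes in all. Of these, 4 (5.06%) passed the unadjusted threshold, beside 8.00% of all genes, with 3 higher and 1 lower. Of all genes, 6.87% were called higher and 1.13% lower. The genotypes did not overlap for 9 of the 79 with higher and for 6 with lower values in Selenbp1-KO kidneys. The lower direction held 3.87% of all genes, and 6.51% of the genes well above background on all arrays of a genotype. The share for the higher direction was not computed, so these counts are not read as a result about the 79 genes. After quantile normalization and in the authors' own values, 11 (13.9%) passed, beside 9.07% of all genes, with 3 higher and 8 lower, so both the split and the order of these shares depended on the scaling. None passed after adjustment over all probes by limma. Their median difference was −0.01, again beside 0.13 for all genes and 0.02 for all genes under the stricter filter. Of the 79, 7 were not well above background on any array. No gene was called among the 15 for vitamin D synthesis, carriage, and receptor partners or among the 18 for magnesium transport. One of the 11 genes for phosphate transport was lower, 1 of the 18 for FGF23, parathyroid hormone, and calcium sensing was higher, and 2 of the 17 for calcium transport were higher. With either of those scalings, 5 of the 11 phosphate genes were lower (Slc20a1, Slc34a2, Slc37a4, Xpr1, and Ezr), 1 of the vitamin D list was lower (Rxra), and 3 of the magnesium list were called (Egf and Trpm7 lower, Cnnm3 higher).

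Slc20a1 (NM_015747, PiT-1), a sodium-phosphate cotransporter found in most cells, was the gene that fell. It had 1.82, 1.81, and 1.65 in WT and 1.30, 1.41, and 1.44 in Selenbp1-KO kidneys. All Selenbp1-KO arrays were below all WT arrays. The difference was −0.38 (standard error 0.106, adjusted p = 0.279 by limma), a signal 1.30-fold lower, and it passed the unadjusted threshold under 14 of 19 alternatives. Its relative Slc20a2 (PiT-2) differed by 0.00. With slide row as a block or within row 2, the Slc20a1 difference was −0.27 and did not pass. Nor did it pass without Selenbp1-KO replicate 1 (−0.33), with the replicate number as a block (−0.39), or with the mean of its probes (−0.07), of which the other was not well above background on any array.

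Trpv6 (NM_022413), the closest relative of Trpv5, rose. It had −3.17, −2.77, and −3.09 in WT and −2.71, −2.46, and −2.60 in Selenbp1-KO kidneys. All Selenbp1-KO arrays were above all WT arrays, although Selenbp1-KO replicate 1 was only 0.06 above WT replicate 3. The share of all genes that separated in this higher direction was not computed. The difference was 0.42 (standard error 0.146, adjusted p = 0.279 by limma), and it passed under 13 of 19 alternatives. It did not pass without WT replicate 2 (0.34), WT replicate 4 (0.38), Selenbp1-KO replicate 2 (0.35), or Selenbp1-KO replicate 3 (0.42), nor with slide row (0.50) or replicate number (0.44) as a block. Stc1 (NM_009285), stanniocalcin-1, a secreted glycoprotein that acts on calcium and phosphate transport, also rose. It had −4.26, −4.21, and −4.52 in WT and −4.05, −3.67, and −3.72 in Selenbp1-KO kidneys. The groups did not overlap, and the difference was 0.52 (standard error 0.152, adjusted p = 0.279 by limma). Of 19 alternatives, 18 called it, among them each array left out in turn, and it was 0.71 within slide row 2. Limma with trend and robust options did not call it (unadjusted p = 0.0557), and it was 0.31 with normexp background correction. Stc1 was dim, though well above background on all 3 arrays of each genotype. The lowest signal so marked on an array was between −5.40 and −4.63. The other probe of Stc1 was not well above background on any array.

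The last of the called genes, Cldn14, a claudin that limits paracellular calcium uptake in the thick ascending limb, was well above background on only 1 array of each genotype. Its difference was 0.35, and 6 of 18 alternatives called it. Of the other claudins of that segment, Cldn16 differed by 0.07 and Cldn19 by 0.28, neither past the threshold. The calcium-sensing receptor Casr differed by −0.01, the FGF23 receptor Fgfr1 by −0.01, and Umod, the uromodulin gene, by 0.12.

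**Figure D4:**
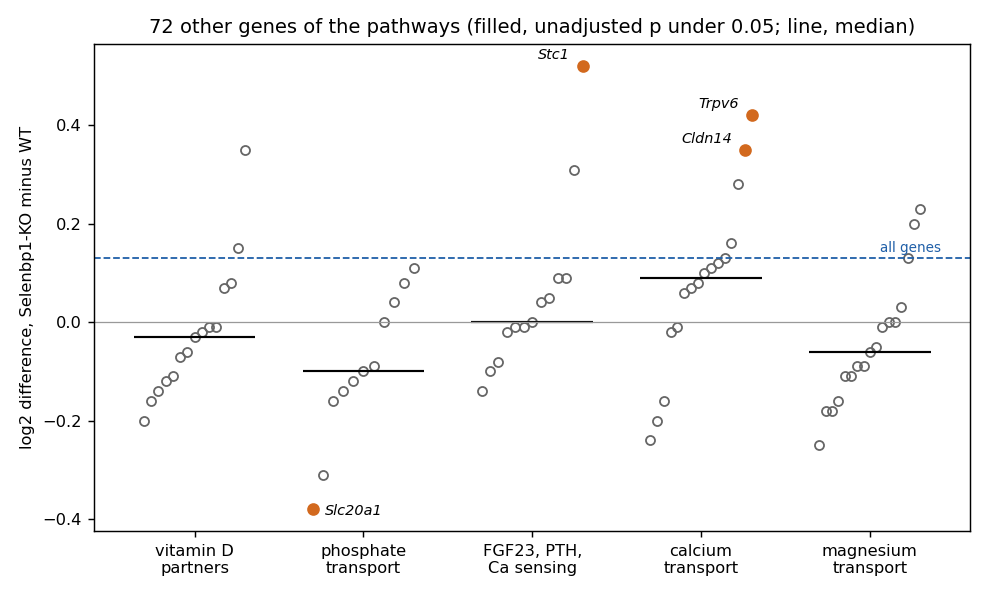
Log2 difference, Selenbp1-KO minus WT, of the 72 genes of 5 pathway lists that were well above background on at least 1 array, without the 10 genes described. Filled points passed an unadjusted limma p under 0.05, and black lines are the medians of the plotted genes. The dashed line is the median of all genes tested (0.13, and 0.02 under the stricter filter). Slc20a1 lies below 0, and Stc1, Trpv6, and Cldn14 lie above it.

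Several markers of other cell types passed the unadjusted threshold. Of 8 macrophage markers, 5 were called higher, as were 5 of 7 fibroblast and 4 of 6 red blood cell markers, beside 6.87% of all genes. None of these markers passed after adjustment over all probes by limma. The summed linear signal of the fibroblast markers was 19.6 to 25.9 times the 75th percentile in WT and 32.0 to 41.6 times in Selenbp1-KO kidneys, and that of the macrophage markers 11.3 to 14.6 and 13.6 to 16.0 times. Adrenal cortex markers summed to 0.588 to 0.712 times in WT and 0.671 to 0.744 times in Selenbp1-KO kidneys, with 0 of 8 called. Only 4 of these 8 were well above background on all arrays of a genotype. Fat markers overlapped between genotypes, with 0 of 7 called, although all 7 differences were above 0, with a median of 0.75. They summed to 17.8 to 36.8 times in WT and 22.2 to 85.5 times in Selenbp1-KO kidneys. For the distal segments, 1 of 6 distal convoluted tubule markers was called (Pvalb, higher by 0.32). Of the connecting tubule and principal cells, 1 of 8 markers was called (Elf5, lower by 0.80), and of the thick ascending limb 0 of 7. Over all genes, 8.00% were called in either direction. The part of these markers in the differences of Slc34a3, Slc20a1, Trpv6, and Stc1 was not tested.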

How the data were processed

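Kidney RNA of 3 WT and 3 Selenbp1-KO mice was labeled with Cy3 and hybridized to 1 array per mouse. The authors deposited, per array, the scanner output of Agilent Feature Extraction (version 10.7.1.1 per the file headers, 9.5.1.1 per the labels), whose processed intensity is linear, background-subtracted, and not scaled between arrays, with a detection p-value per spot against its background. A further table deposited by the authors has a linear intensity per probe, whose columns share 1 distribution (quantile normalized).

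Here, processed intensities were divided by the 75th percentile of the 59305 spots of their array that are not controls and log2 transformed. Spots marked non-uniform or outlying were removed, and spots of a probe averaged. Following the methods, a probe was kept where its detection p was under 0.05 on 1 or more of 6 arrays (56097 of 56605, all 17 probes of the 10 genes among them). Genotypes were compared two-sided with lmFit and eBayes of limma (version 3.58.1; R version 4.3.3) at an unadjusted p under 0.05. Adjusted values are Benjamini–Hochberg over all probes. A gene is represented by its brightest probe over all arrays. Names came from the files' accessions through a RefSeq table (GRCm38.p6), which named 32994 probes. Coordinates are those of the files (mm9). Within-array contrasts used exact permutation tests.

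Named genes are the 10 genes, 22 partners, Selenbp1, and pathway genes past the threshold that lay well above background on all arrays of a genotype. Cldn14, Slc34a2, Slc37a4, Ezr, Trpm7, and Cnnm3 fall outside this rule, as do the markers named by value, and they were chosen after their values were seen. The 10 genes and all lists were chosen with earlier results of these data known. Tested on simulated data with 200 changed probes among 56093, the fit found 64.8%, 87.8%, and 98.2% of log2 changes of 0.5, 1, and 2 at the unadjusted threshold, and 0%, 0%, and 70.4% after adjustment. The 19 alternatives are described after the report, and they are not separate tests. Slide row as a block and within row 2 give the same difference, because row 1 holds only WT arrays. Fits without a filter or with flagged spots kept nearly repeat the main fit, and the authors' values nearly repeat quantile normalization. Counts of alternatives therefore hold near repeats. No sample was left out.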

Additional observations from a re-analysis of the deposited data

How the results depend on the processing

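The signs of Slc34a3, Vdr, Cyp24a1, and Pth1r differences held under all 19 alternatives. Slc34a3 ranged from −0.39 to −0.20. The 10 genes held 1 called gene, in place of 0, under normexp background correction, quantile normalization, the authors' values, a stricter filter (probes well above background on all arrays of a genotype), and limma with trend and robust options (Slc34a3 in each), and 0 with the methods' t-test. Leaving out an array gave 0 to 1 called gene (Cyp27b1, without WT replicate 4). Slc34a1 reversed to −0.0046 with normexp, to −0.04 with quantile normalization, to −0.03 with the authors' values, and to −0.03 with slide row as a block or within row 2. Trpm6 reversed to 0.03 with normexp, 0.01 with slide row as a block or within row 2, and 0.06 with the mean of all probes, of which 1 was at background. Cyp27b1 reversed to 0.09 with slide row as a block or within row 2. Kl reversed to 0.13 without WT replicate 4 (from −0.11 to 0.13 over the arrays left out), and Calb1 to −0.01 without Selenbp1-KO replicate 3 (from −0.01 to 0.12) and to −0.02 with the mean of all probes. Trpv5 minus Calb1 reversed to 0.04 with normexp, with slide row as a block, and within row 2, to 0.02 with the mean of all probes, and to 0.09 without Selenbp1-KO replicate 2 (from −0.17 to 0.09 over the arrays left out). Trpm6 minus Trpv5 reversed to 0.06 with the mean of all probes. The cause was not tested.

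Of the 79 pathway genes, 4 were called, against 11 with quantile normalization and with the authors' values, 9 with the median of each array and with trend and robust options, 8 with the methods' t-test (2857 genes in all, 2 after adjustment), and 2 to 12 when an array was left out (12 without WT replicate 4, and 2 without WT replicate 2, Selenbp1-KO replicate 1, or Selenbp1-KO replicate 3). Over the array, 4479 probes were called, against 7009 with normexp, 14616 with the median of each array, 2841 with the stricter filter, 7536 with trend and robust options, and 2024 (without WT replicate 2) to 17585 (without WT replicate 4) when an array was left out. Of called genes, 85.8% were higher, against 58.8% with quantile normalization and 40.1% with slide row as a block. The genotypes share the replicate numbers 2 and 3 only, and nothing in the labels says that these pair the mice. With the replicate number as a block, 18430 probes, 11 pathway genes, and 1 of the 10 genes (Cyp27b1, −1.80) were called, and Kl reversed to 0.13. Deviations from the group means correlated with r of 0.171 and 0.187 between same-numbered arrays, and of up to 0.186 between arrays with different numbers. Signal over background limits Trpm6 (well above it on 5 of 6 arrays), Cldn14 (2 of 6), and the 7 pathway genes at background on all arrays.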

Other observations

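Cyp27b1 was among the genes that set WT replicate 2 apart most. Among the 19265 genes well above background on all arrays of a genotype, its WT replicate 2 signal exceeded the highest of the other 5 arrays by 1.70 log2, which ranked 3 of 19265. The genes named next were chosen after their values were seen. Fosb, an immediate early transcription factor gene, ranked 1, with −2.31 in WT replicate 2 and −4.84 to −4.18 on the other arrays. Socs3, a feedback inhibitor of cytokine signals, had −0.24 against −1.85 to −1.46. Egr1, another immediate early gene, had −0.49 against −2.30 to −1.56, and Atf3, a stress response factor gene, had −1.89 against −3.19 to −2.91. For these 4 genes, in contrast to Cyp27b1, WT replicate 3 lay within or below the range of the other arrays, or level with the highest of them for Egr1.

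Fgf23, the bone hormone that acts through Kl, was also chosen after its values were seen. Its probe was well above background on all 6 arrays, with 0.41, −0.48, and 1.32 in WT and 0.11, 1.06, and 0.01 in Selenbp1-KO kidneys, so that WT replicate 4 and Selenbp1-KO replicate 2 were highest. Slc8a3, a sodium-calcium exchanger gene, had the same arrays highest, with −0.43 and −0.40 there and −1.64 to −1.11 on the other arrays. So did Itgam, a macrophage marker also chosen after its values were seen, with 1.83 and 1.52 there and 0.24 to 0.94 on the other arrays. The pattern is thus not limited to genes of these pathways. Whether the Fgf23 probe reads Fgf23 RNA alone was not tested. The mean difference between genotypes was −0.02 for Fgf23 and 0.08 for Slc8a3, less than the SD between arrays of either genotype.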
